A study of Mus musculus with 6 samples.

Results

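Major urinary protein (Mup) genes were examined in mouse liver through 6 named copies: Mup7, Mup13, Mup15, Mup20, Mup21 and the pseudogene Mup-ps19. They are 6 of the 1834 genes for which liver RNA sequencing values were deposited, and they were picked by name because their values were higher with Ly6d overexpression than with the control vector in these same libraries. Levels and differences between the 2 groups are therefore given as a description of the members, without a test. The tested livers had received AAV-Ly6d, an adeno-associated virus that carries Ly6d (genotype label: Ly6d overexpression, 3 libraries), and the control livers AAV-GFP, the same kind of virus with green fluorescent protein (genotype label: WT, 3 libraries). All 6 libraries share the viral delivery and, per the series' design text, the diet, and the series title places the study in metabolic dysfunction-associated steatotic liver disease. The labels do not give sex, strain or age, the promoter in the virus, or whether each library is from its own animal, so that p-values measure only the spread between these libraries, which may be technical.

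MUPs are small lipocalins, barrel-shaped proteins that hold volatile molecules in an inner pocket. Hepatocytes secrete them into the blood, they pass into the urine, and there they carry and release pheromones. Liver Mup expression in mice is higher in males than in females, depends on the pulsatile male pattern of growth hormone acting through the transcription factor STAT5, and also responds to androgen and thyroid hormone. Mup20 encodes darcin, a MUP that itself acts as a male pheromone, whereas a pseudogene such as Mup-ps19 is annotated as making no protein.

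In the GENCODE M21 annotation of GRCm38, which is the mm10 assembly, chromosome 4 carries the Mup cluster between 59956804 and 62150863, with 22 coding Mup genes and 26 pseudogenes. The table holds 14 Mup genes, 12 coding and 2 pseudogenes. The other 8, besides the 6 members, are Mup1, Mup3, Mup9, Mup11, Mup12, Mup17, Mup18 and Mup-ps20. All 6 members lie on the minus strand. Mup7 is at 60066469 to 60070475, Mup13 at 61224307 to 61228286 and Mup15 at 61435790 to 61439743, all in the array of near-identical copies. Mup-ps19 (61957149 to 61959911), Mup20 (62050234 to 62054158) and Mup21 (62147932 to 62150863) lie at the far end. The longest annotated transcript of the coding members has 7 exons, or 6 in Mup21, and between 677 and 1033 bases, and that of Mup-ps19 has 6 exons and 519 bases.

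How alike the copies are decides how far a read can be assigned to one of them, so a stretch of 75 bases near the start of the coding sequence is shown for each member. It covers coding bases 11 to 85 in Mup7, Mup13 and Mup15 and 14 to 88 in Mup20 and Mup21, where Mup13 and Mup15 differ most from Mup7 (chromosome 4, minus strand). Sequences are from GENCODE M21 transcripts on GRCm38, 5′ to 3′, and capitals mark bases that differ from Mup7.
Mup7: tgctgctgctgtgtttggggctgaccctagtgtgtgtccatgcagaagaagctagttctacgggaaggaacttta
Mup13: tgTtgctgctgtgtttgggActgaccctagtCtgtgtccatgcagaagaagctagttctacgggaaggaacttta
Mup15: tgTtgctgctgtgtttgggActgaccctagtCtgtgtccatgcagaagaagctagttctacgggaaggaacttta
Mup20: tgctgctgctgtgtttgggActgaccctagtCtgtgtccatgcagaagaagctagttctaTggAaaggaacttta
Mup-ps19: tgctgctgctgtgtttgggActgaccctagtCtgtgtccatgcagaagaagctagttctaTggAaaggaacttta
Mup21: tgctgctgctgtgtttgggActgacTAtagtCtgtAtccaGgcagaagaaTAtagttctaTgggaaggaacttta

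Here Mup13 and Mup15 had 3 differences from Mup7, Mup20 and Mup-ps19 had 4 and Mup21 had 9. Over whole aligned transcripts Mup7 was 98.8% identical to Mup13 and 99.2% to Mup15, against 90.6% to Mup20 and 86.8% to Mup21. All 519 bases of Mup-ps19 matched Mup20 with 0 mismatches, and the alignment had 1 internal gap of 27 bases. At a threshold of 98% identity, 16 coding genes formed 1 group with Mup7, of which 9 are in the table.

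Sharing was also counted in windows the length of a read, as the percentage of all windows of a member's longest transcript that occur exactly in another annotated gene. With 100-base windows the share was 97.3% for Mup15, 81.8% for Mup13, 81.6% for Mup7, 76.7% for Mup-ps19, 38.8% for Mup20 and 4.50% for Mup21. For Mup15 the partners with most windows were Mup2, Mup1 and Mup12, whereas for Mup20 the 1 partner was Mup-ps19 and for Mup21 it was Mup3. With 50-base windows Mup15 had 100% of its windows in other genes, so that an error-free read of that length is in no case its own, and the shares were 50.5% for Mup20 and 19.3% for Mup21. With 150-base windows the shares were 90.7% for Mup15, 31.1% for Mup20 and 0% for Mup21. The sources used here give neither the read length nor the read counter and its handling of reads that match several copies. Values of Mup7, Mup13, Mup15 and Mup-ps19 as single copies are therefore uncertain, and those of Mup20 are less so. Mup21 shares the least of the 6 at each of the 3 window lengths.

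**Figure D1:**
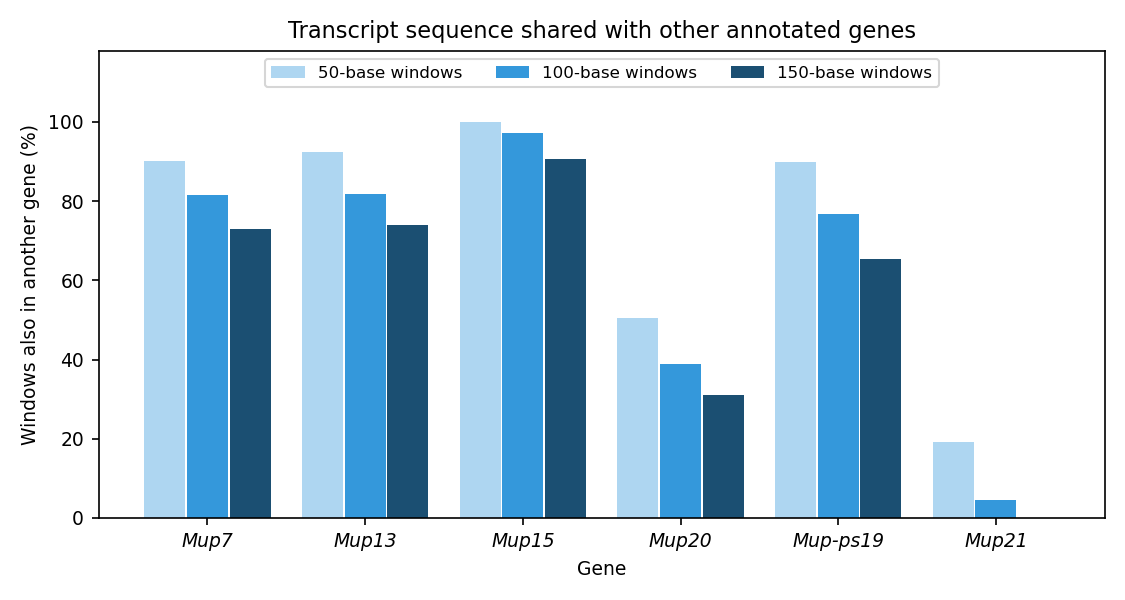
Percentage of sequence windows of each member's longest transcript that also occur in another annotated gene (vertical axis), by gene (horizontal axis) and window length (shades of blue). Mup15 has 97.3% of its 100-base windows in other genes and Mup21 4.50%.

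Upstream of the genes, RefSeq promoter windows on GRCm38 (250 bases before to 50 after the start) were matched for 3 members, Mup7, Mup15 and Mup21. A stretch of 57 bases of the Mup7 window is shown with its best match in Mup15 and Mup21, the only other members with a window. Whether it bears on the values was not tested. It lies at chr4:60070519-60070575 for Mup7, chr4:61439875-61439931 for Mup15 and chr4:62150959-62151015 for Mup21, is written 5′ to 3′ on the minus strand, and has capitals where a base differs from Mup7.
Mup7: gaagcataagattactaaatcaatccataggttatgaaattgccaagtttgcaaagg
Mup15: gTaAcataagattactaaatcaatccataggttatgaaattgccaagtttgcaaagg
Mup21: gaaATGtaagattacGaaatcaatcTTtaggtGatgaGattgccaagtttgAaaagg
Mup15 had 2 differences from Mup7 here and Mup21 had 9. The letters of a STAT5 site, TTCNNNGAA, searched on both strands, were in 0 of these 3 windows, in 0 of the 14 windows matched to coding Mup genes and in 8.47% of 27025 promoter windows of this length. A TATA sequence, TATATAA, was in the windows of Mup15 and Mup21 but not of Mup7, in 13 of those 14 windows and in 3.46% of all windows. With no match to the first motif, no matches of the motifs overlapped in the member windows. A match or its absence says nothing here about binding.

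The deposited values are read counts normalised by a factor per library, and the reads recovered from them over the 1834 genes numbered 3835101 to 4359932 in AAV-Ly6d and 3248078 to 3448888 in AAV-GFP, a part of each library. The vector's own gene, Ly6d, had 3181, 1799 and 3275 in AAV-Ly6d against 56.1, 9.68 and 182 in AAV-GFP. How the genes of the table were chosen is not stated in the sources used here, so counts hold within the table only. In 84.5% of the 1780 tested genes the groups did not overlap, and 1394 had an unadjusted p under 0.05 in limma. If the genes were chosen by this contrast, calls and adjusted p-values were partly fixed by that choice and are no genome-wide test. Within the table limma called 782 of 1780 tested genes (43.9%) at an adjusted p under 0.05. Higher in AAV-Ly6d were 15.9% of tested genes, and lower were 28.0%. Of these calls 36.2% were higher, against 69.4% of 935 calls after rescaling each library by its median ratio. That rescaling shifted the median log2 fold change of all genes by 0.34. The members' values are given on the deposited scale, not corrected for this shift, unless another setting is named. AAV-GFP replicate 2 stood apart. Its value of Apob, a hepatocyte gene with a transcript of 13934 bases, was 743167, or 20.1% of its summed values, against 186314 to 216089 and 4.49% to 6.41% in the other 5 libraries. Hepatocyte markers were present (7 of 20 listed are in the table), whereas 0 of 12 listed macrophage and 0 of 12 lymphocyte and neutrophil markers are in it. A marker's absence from the table does not show that its cells were absent from the liver.

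Summed over the 6 members, normalised read counts were 185400, 125953 and 189007 in AAV-Ly6d livers, against 54562, 11491 and 28746 in AAV-GFP livers. Every AAV-Ly6d library was above every AAV-GFP library, and the lowest of them held 2.31 times the highest AAV-GFP value. The means were 166787 ± 35409 and 31600 ± 21677 (SD, n = 3 each), which is 5.28 times as much, or 2.40 on the log2 scale. Leaving out AAV-Ly6d replicate 2 gave a log2 ratio of 2.57, leaving out AAV-GFP replicate 1 gave 3.05 and leaving out AAV-GFP replicate 2 gave 2.00. The table's 14 Mup genes together took 10.1%, 5.36% and 10.7% of the recovered reads in AAV-Ly6d and 5.01%, 2.23% and 3.19% in AAV-GFP. In liver tissue, fewer cells of a type and less RNA per cell cannot be told apart.

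The groups did not overlap for any of the 6 members, and 35.2% of all tested genes were higher in AAV-Ly6d without overlap in the same way, 84.5% in either direction. All 6 passed the filter on low values (a value of 1 or more in 3 libraries) and limma's adjusted p of 0.05, as did 15.9% of the tested genes in this direction. With AAV-Ly6d replicate 1 left out 0 members passed, as did 0 of 1764 tested genes (773 at an unadjusted p under 0.05), and with AAV-Ly6d replicate 3 left out 1 member and 19 of 1758 tested genes did. The members were chosen from this contrast, so nothing is read from these counts. Their median log2 fold change was 3.48, between 1.68 and 6.58, against a median of -0.67 over all 1780 tested genes. Of the 8 other Mup genes, all were higher on average in AAV-Ly6d and in 2, Mup11 and Mup18, the groups did not overlap.

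**Figure D2:**
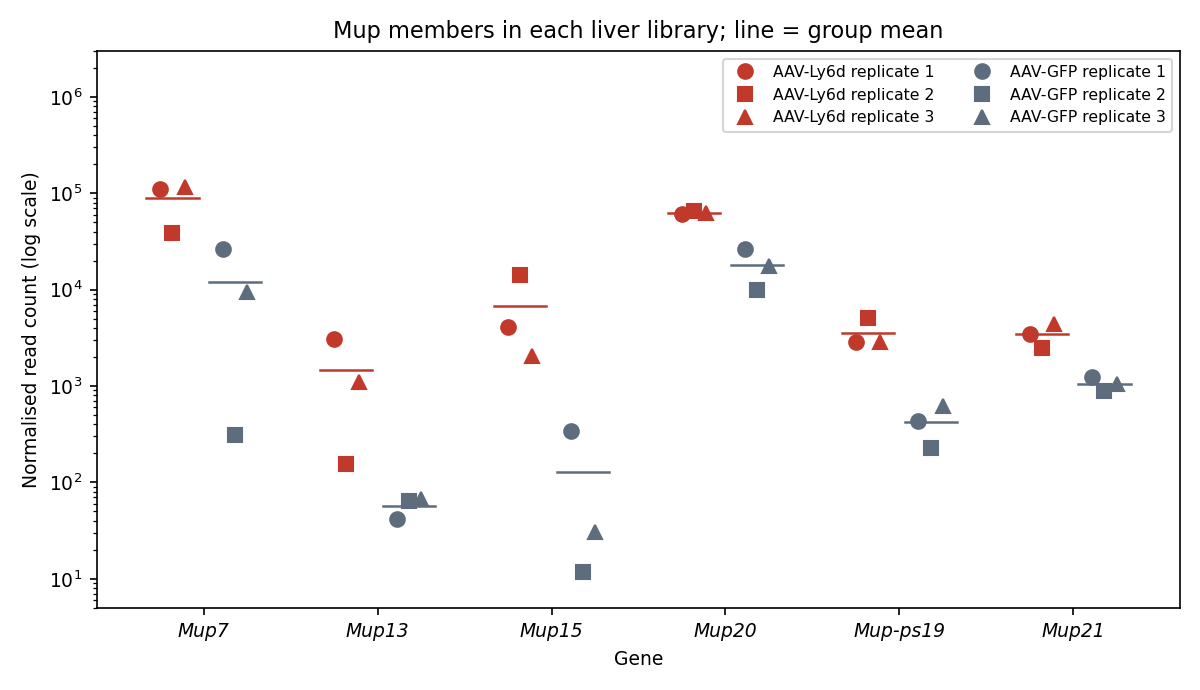
Normalised read count (vertical axis, log scale) of each member (horizontal axis) in the 3 AAV-Ly6d libraries (red) and the 3 AAV-GFP libraries (grey), with marker shapes for replicates and a line for each group mean. Mup20 varies little among AAV-Ly6d libraries (60762 to 65898), whereas Mup13 spans 156 to 3091.

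Mup20, the darcin gene, was the most even member among the AAV-Ly6d libraries but not among the AAV-GFP libraries. AAV-Ly6d livers held 60762, 65898 and 62001 normalised reads, against 26296, 9999 and 17563 in AAV-GFP livers. The AAV-Ly6d values lay within a factor of 1.08 of each other, while the AAV-GFP values spanned a factor of 2.63, with replicate 2 lowest. The means were 62887 ± 2680 and 17953 ± 8155 (SD, n = 3 each), and the log2 fold change on the log2(value + 1) scale used for all single genes was 1.92.

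Mup21, the member with the smallest percentage of windows in other genes, encodes a MUP-type lipocalin at the end of the cluster. It had 3484, 2506 and 4364 in AAV-Ly6d and 1249, 881 and 1051 in AAV-GFP. All AAV-Ly6d values were above all AAV-GFP values, by a factor of at least 2.01. Means were 3451 ± 929 and 1061 ± 184 (SD, n = 3 each), with a log2 fold change of 1.68, which ranged from 1.49 to 1.89 when any 1 library was left out and was 2.02 after rescaling by the median ratio.

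The pseudogene Mup-ps19 had 2871, 5016 and 2829 in AAV-Ly6d and 433, 229 and 619 in AAV-GFP, with a log2 fold change of 3.12. Its highest value fell in AAV-Ly6d replicate 2, the library in which Mup20 was also highest. As a percentage of Mup20 in the same library it was 4.72%, 7.61% and 4.56% in AAV-Ly6d and 1.65%, 2.29% and 3.53% in AAV-GFP. These percentages did not overlap between groups, although the annotated bases of the pseudogene match Mup20 apart from the gap. How reads were split between them was not tested. Together the 2 genes had 63632, 70913 and 64829 in AAV-Ly6d and 26729, 10228 and 18182 in AAV-GFP.

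Mup7, one of the near-identical array copies, was the most abundant member in 2 AAV-Ly6d libraries and the most uneven one in AAV-GFP. It had 111086, 38235 and 116643 in the AAV-Ly6d livers and 26203, 307 and 9415 in the AAV-GFP livers. Within AAV-GFP the highest value was 85.4 times the lowest, and the lowest AAV-Ly6d value was 1.46 times the highest AAV-GFP value. The means were 88655 ± 43753 and 11975 ± 13136 (SD, n = 3 each), 7.40 times as much. The log2 fold change was 4.22 with all libraries, 5.54 when AAV-GFP replicate 1 was left out and 2.33 without AAV-GFP replicate 2, in which 285 reads were recovered for Mup7 against 27081 and 11157 in the other 2.

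Mup15, for which no 50-base window is its own, had 4106, 14142 and 2066 in AAV-Ly6d and 340, 11.8 and 30.4 in AAV-GFP. The values came from 4224, 14191 and 1899 reads in AAV-Ly6d and from 351, 11 and 36 reads in AAV-GFP. Its log2 fold change of 6.58 was the largest of the 6, and lay between 5.58, with AAV-GFP replicate 2 left out, and 7.94, with AAV-GFP replicate 1 left out. Means were 6771 ± 6464 and 127 ± 184 (SD, n = 3 each), so that in both groups the SD was close to or above the mean.

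Mup13 differed from Mup15 in which library was high. Its values were 3091, 156 and 1104 in AAV-Ly6d and 41.6, 63.5 and 66.7 in AAV-GFP. Mup13 was lowest in AAV-Ly6d replicate 2, where Mup15 was highest, and Mup15 held 1.33, 90.4 and 1.87 times the Mup13 value in the AAV-Ly6d libraries and 8.16, 0.186 and 0.456 times in AAV-GFP. AAV-Ly6d replicate 2 was 2.35 times the highest AAV-GFP library. The log2 fold change of Mup13 was 3.83. It became 5.02 when AAV-Ly6d replicate 2 was left out, and 2.87 when AAV-Ly6d replicate 1 was.

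AAV-Ly6d replicate 2 thus held a different mix of copies from the other AAV-Ly6d libraries. Of the 14 Mup genes, 11 were lowest there within their group and 3, Mup15, Mup20 and Mup-ps19, were highest there. Mup12 and Mup17, array copies close to Mup7, had 6068 and 853 in that library, against 89759 and 26654 in replicate 1 and 85938 and 38183 in replicate 3, and in both genes it lay below the highest AAV-GFP library (11073 and 1802). In AAV-GFP, replicate 2 was lowest for 11 of the 14. The labels give no batch, litter or strain that sets these libraries apart.

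**Figure D3:**
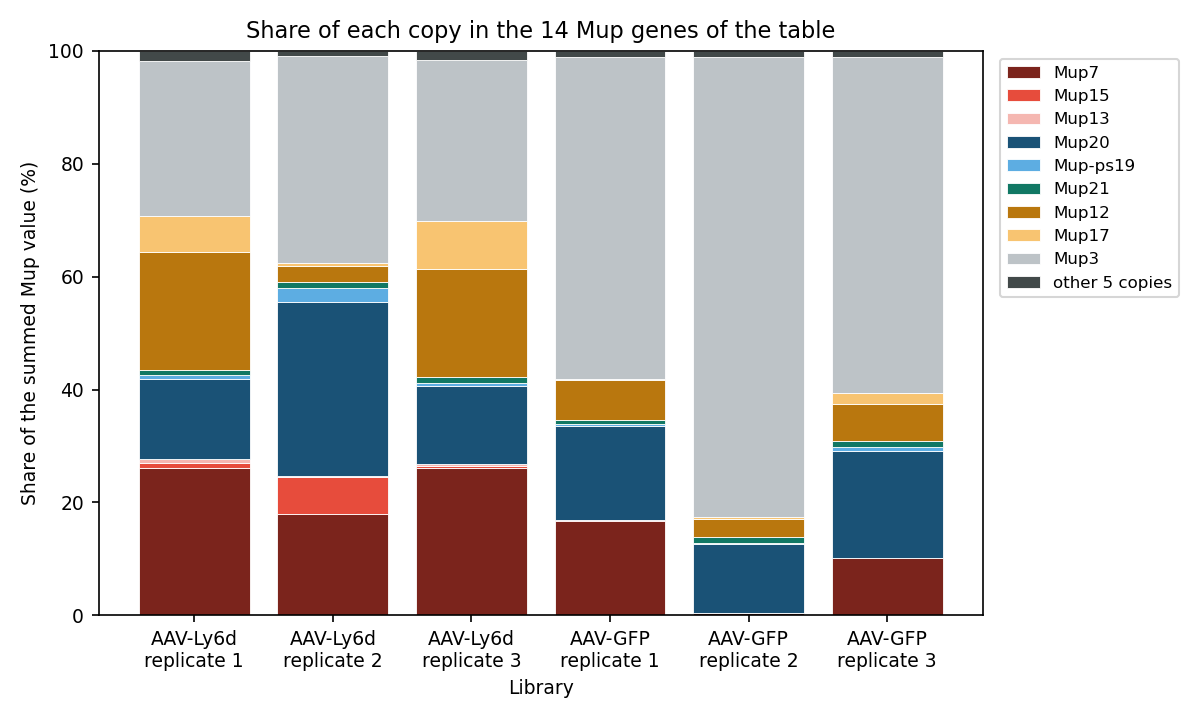
Share of each copy (colours) in the summed normalised read count of the 14 Mup genes in the table, in percent (vertical axis), for each library (horizontal axis). Mup20 takes 30.9% and Mup15 6.63% in AAV-Ly6d replicate 2, and Mup3 takes 57.1% to 81.4% in the AAV-GFP libraries.

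Of the remaining copies in the table, Mup11 had 7180, 1797 and 6801 in AAV-Ly6d and 1483, 891 and 893 in AAV-GFP, and Mup18 had 172, 33.9 and 132 against 11.6, 0 and 20.3. In Mup11 and Mup18 the groups did not overlap. Mup1, with 206, 51.8 and 246 in AAV-Ly6d and 69.7, 32.3 and 29.5 in AAV-GFP, and Mup9, with 274, 28.9 and 265 against 49.3, 40.9 and 52.3, overlapped through AAV-Ly6d replicate 2. So did the pseudogene Mup-ps20, at 52.5, 2.99 and 55.5 in AAV-Ly6d and 4.84, 0 and 2.53 in AAV-GFP.

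Sums over copies are less open to the assignment of reads among the summed copies, but not to sharing with copies outside the sum. Of the 16 coding genes at least 98% identical to Mup7, only 9 are in the table. Mup2, which shares 67.8% of the 100-base windows of Mup15, is not. The 9 copies at least 98% identical to Mup7 summed to 242529, 61366 and 251378 in AAV-Ly6d and to 39678, 4244 and 18324 in AAV-GFP. The groups did not overlap, and the means, 185091 ± 107240 and 20749 ± 17841 (SD, n = 3 each), differed by a log2 ratio of 3.16. The 5 more distant genes, Mup3, Mup20, Mup21, Mup-ps19 and Mup-ps20, summed to 184569, 151805 and 196698 in AAV-Ly6d and to 117877, 78492 and 74592 in AAV-GFP, a log2 ratio of 0.98. The near-identical array copies made up 56.8%, 28.8% and 56.1% of the Mup sum in AAV-Ly6d and 25.2%, 5.13% and 19.7% in AAV-GFP. Mup3 alone, a close relative of Mup21, had 117400, 78383 and 127450 in AAV-Ly6d and 89894, 67383 and 55355 in AAV-GFP, so that its groups overlapped (log2 fold change 0.60).

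Per kilobase of longest transcript, either Mup7 or Mup20 came first in every library. In AAV-Ly6d, Mup7 had 107538, 37014 and 112917 normalised reads per kilobase and Mup20 had 65476, 71010 and 66811. Mup7 thus led in replicates 1 and 3 and Mup20 in replicate 2. In AAV-GFP, Mup20 led in every library, with 28336, 10775 and 18926 per kilobase, against 25366, 297 and 9114 for Mup7. Below them, mean levels per kilobase in AAV-Ly6d were 7320 ± 6988 for Mup15, 6882 ± 2410 for Mup-ps19, 5098 ± 1372 for Mup21 and 1474 ± 1522 for Mup13 (SD, n = 3). Values of Mup15, Mup-ps19 and Mup21 overlapped, whereas every value of Mup21 was above every value of Mup13. By mean, Mup21 came next in AAV-GFP with 1567 ± 272, ahead of Mup-ps19 with 823 ± 376 (SD, n = 3). Mup15 followed with 138 ± 199 and Mup13 with 58.2 ± 13.9 (SD, n = 3), and the values of these 2 overlapped. In AAV-GFP replicate 2, however, Mup21 (1302) and Mup-ps19 (442) were above Mup7 (297).

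**Figure D4:**
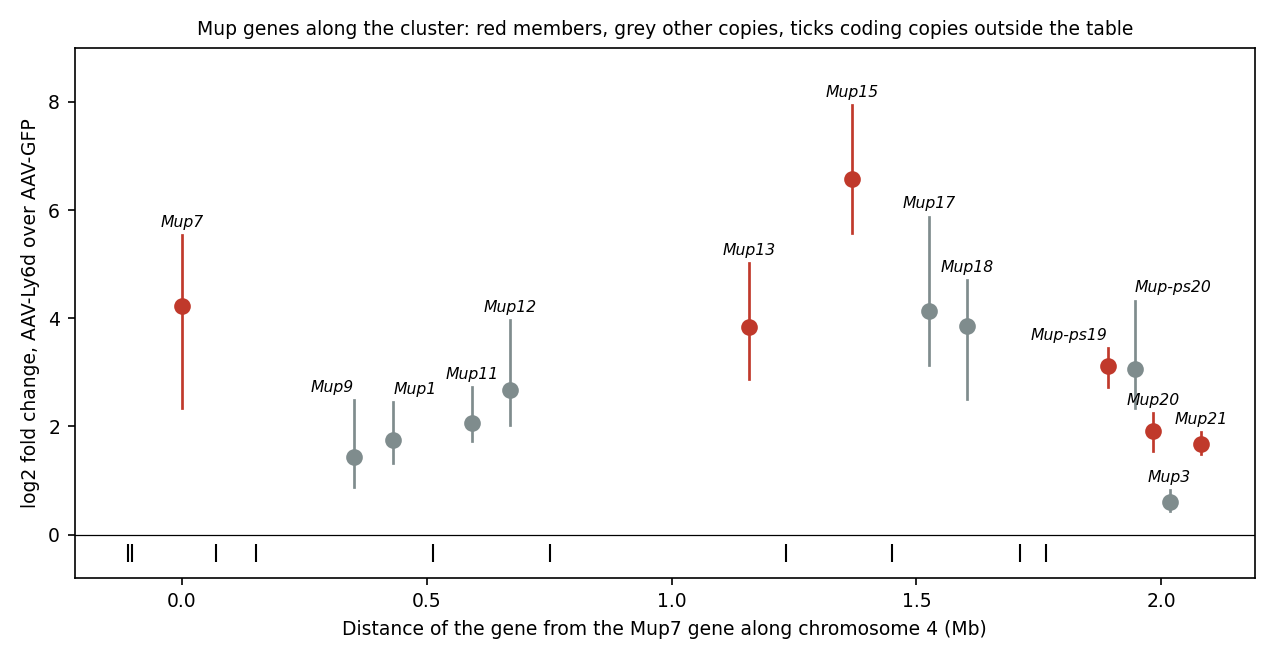
log2 fold change of AAV-Ly6d over AAV-GFP (vertical axis) for the 14 Mup genes against their distance from Mup7 along chromosome 4 in megabases (horizontal axis), members in red and other copies in grey. Vertical lines span the values with 1 library left out, ticks below 0 mark the 10 coding copies outside the table, and the values run from 0.60 for Mup3 to 6.58 for Mup15.

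Along the cluster, the log2 fold change of the array copies ranged from 1.43 for Mup9 to 6.58 for Mup15, and neighbouring copies could differ widely. At the far end it was 3.12 for Mup-ps19, 3.06 for Mup-ps20, 1.92 for Mup20, 0.60 for Mup3 and 1.68 for Mup21, and all of these but Mup3 lie within the range of the array copies. The 10 coding Mup genes outside the table were not analysed here.

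Transcript length moved with the values across the table, and Mup transcripts are short. Among tested genes outside the family, the 144 with a longest transcript of at most 1100 bases had a median log2 fold change of 0.51, with 58.3% higher in AAV-Ly6d, whereas the 538 with over 5000 bases had a median of -0.88, with 11.5% higher. The members' median of 3.48 lies above that of the short genes, but the members were chosen for high values in this contrast. Nothing is therefore read from that difference. The 14 Mup genes of the table, members included, had a median of 2.87, with values from 0.60 to 6.58. Cell type markers moved as well. All 12 endothelial markers in the table, of 17 listed, fell (0 did when AAV-Ly6d replicate 1 was left out and 2 when replicate 3 was), and their summed level was 2942 to 3593 in AAV-Ly6d and 7860 to 12360 in AAV-GFP. Of 15 stellate and fibroblast markers 8 are in the table, 6 fell (0 when AAV-Ly6d replicate 1 or 3 was left out, and 3 or 4 when an AAV-GFP library was) and the sums were 1101 to 2476 in AAV-Ly6d and 3560 to 5219 in AAV-GFP. Both cholangiocyte markers in the table, of 10 listed, rose (0 or 1 when any AAV-Ly6d library or AAV-GFP replicate 1 was left out), with sums of 303 to 1111 in AAV-Ly6d and 59.2 to 80.2 in AAV-GFP. Of 8 erythroid markers 5 are in the table and 2 fell (1 with AAV-GFP replicate 1 left out and 0 with any other), with sums of 1898 to 2850 in AAV-Ly6d and 2708 to 5863 in AAV-GFP. The 7 hepatocyte markers in the table, of which 3 rose (0 when any library but AAV-GFP replicate 2 was left out), summed to 726619 to 805759 in AAV-Ly6d and to 530064 to 1058610 in AAV-GFP, where Apob in replicate 2 sets the upper end. The part of length and of cell makeup in the Mup values was not tested.

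Other genes of the growth hormone axis were looked at through lists. Of 22 listed genes of growth hormone and STAT5 signalling, 3 are in the table and 1 rose, Igfbp1, which encodes an insulin-repressed binding protein of IGF1. Igfbp1 had a log2 fold change of 1.72 (adjusted p = 0.0365 in limma). The list had 1 call when AAV-GFP replicate 2 was left out and 0 when any other library was. Socs3, a feedback inhibitor of cytokine receptors, was at 1.65 and the IGF1 receptor gene Igf1r at -1.17, with adjusted p-values of 0.0519 and 0.0637 in limma. The growth hormone receptor gene Ghr, Jak2, Stat5a, Stat5b and Igf1 were not analysed here.

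Male-biased liver genes outside the Mup family were looked at next. Of 23 listed, 9 were tested, 5 rose, 0 fell and 4 did not pass, while 15.9% of all tested genes rose. The median log2 fold change was 0.80, against -0.67 over all tested genes. It was 0.61 for the 7 hepatocyte markers and 0.65 for the 5 tested hepatocyte transcription factors, so a positive median was not particular to this list. Selenbp2, a selenium-binding protein gene with a near copy, rose by 2.41 on the log2 scale and held 1839 ± 508 in AAV-Ly6d and 373 ± 203 in AAV-GFP (SD, n = 3 each). The oxysterol hydroxylase gene Cyp7b1 rose by 1.37, the glutathione transferase gene Gstp1 by 1.54 and Cyp4a12b, a fatty acid hydroxylase gene with close copies, by 1.82. The 5th gene that rose, the complement gene C6 (0.80), was named after its value was seen. The list kept 0 calls when AAV-Ly6d replicate 1 or 3 was left out, 1 when AAV-Ly6d replicate 2 was, and 3 when AAV-GFP replicate 1 or 3 was.

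Of 29 listed female-biased genes 10 were tested, and their median log2 fold change was -1.89. Of these, 5 fell, 1 rose and 4 did not pass. Over all tested genes the median was -0.67, and 28.0% fell and 15.9% rose. Cyp2b9, a cytochrome P450 gene of female liver, had 2.92, 0 and 3.26 in AAV-Ly6d and 216, 295 and 2016 in AAV-GFP. The other named falls were those of Vldlr, a lipoprotein receptor gene (-2.58), the cytochrome P450 gene Cyp2a22 (-2.83) and Cd36, a fatty acid transporter gene (-1.34). Named after their values were seen, the transporter gene Slc22a27 fell (-3.29) and the fatty acid hydroxylase gene Cyp4a10 rose (0.94). The 6 calls became 0 when AAV-Ly6d replicate 1 was left out and 2 when AAV-Ly6d replicate 2 or 3 or AAV-GFP replicate 3 was. Sex is not in the labels, and its part in the values of either list was not tested.

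Among transcription factors of hepatocytes, 5 of 20 were tested and 2 rose, Foxa3 (1.07) and Hnf4a (0.65), which encode a forkhead and a nuclear receptor factor of liver gene expression. Cebpa, a gene of a leucine zipper factor, was at 0.47 and did not pass (adjusted p = 0.0503 in limma). Without AAV-GFP replicate 2 the list had 3 calls, and without any 1 of the other libraries it had 0. Of 15 listed genes of other lipocalins and small ligand carriers, 3 were tested and 0 passed in limma, against 3 in edgeR, in DESeq2 and at an adjusted p under 0.1. Rbp4, the retinol carrier of plasma, was at 0.48 and Apom, a lipocalin of lipoproteins, at 0.94, with adjusted p-values of 0.0595 and 0.0572 in limma.

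The genes outside the family whose pattern was most like the summed members over the 6 libraries were Inhbc, Serpina1b, Osbpl2, Orai3 and Cmas. Pearson's r on log2(value + 1) was between 0.992 and 0.996, the highest of 880 genes at or above the median level, and is a description over libraries that share depth and group. Inhbc, an activin subunit gene of liver, had 1666, 1473 and 1557 in AAV-Ly6d and 1190, 747 and 972 in AAV-GFP. Serpina1b, one of the near-identical alpha-1-antitrypsin genes, had 110776, 103467 and 116048 in AAV-Ly6d and 89724, 71352 and 84146 in AAV-GFP. In these genes AAV-GFP replicate 2 was the lowest library and AAV-Ly6d replicate 2 the lowest of its group. The genes were picked for likeness to the summed members, so this shared order follows from the choice. Among the members themselves, deviations from the group means had their highest Pearson's r, 0.92, between Mup7 and Mup20, over 6 libraries. The lowest values were -0.51, for Mup13 with Mup15 and for Mup13 with Mup-ps19. Other pairs lay between, such as Mup7 with Mup13 at 0.14. With so few libraries, a single one can weigh heavily on such an r.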

How the data were processed

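The deposited signal is a normalised read count for 1834 genes in 6 liver libraries. Bowtie 0.12.2 and the mm10 build appear, with no role, among tools and builds per the submitters' processing notes, and the sources used here do not state the read counter or the normalisation. In a deposited column the values are multiples of the worth of 1 read (100% of values within 0.001 of a whole number), so reads were recovered by division. For AAV-Ly6d replicate 2 the step is near 1 and an automatic check does not apply. Of 1834 identifiers, 1833 had a symbol.

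limma 3.58.1 in R 4.3.3 was fitted with a variance trend to log2(value + 1) for genes reaching 1 in 3 or more libraries, with Benjamini-Hochberg adjustment over the 1780 tested. "Rose" and "fell" refer to an adjusted p under 0.05. The test was tried on simulated data. Alternatives were count tests of the recovered reads in edgeR 4.0.16 (967 genes called) and DESeq2 1.42.0 (938), rescaling, filters, pseudocounts, a replicate block and leaving out each library. Transcripts are from GENCODE M21, aligned with Biopython 1.88.

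Members and gene lists were chosen with earlier results of these data known. Named are all members, the Mup genes of the table, up to 4 genes with the smallest p in each list (some are not reported here) and the 5 genes most like the summed members. No p-value is given for members, and no list was tested as a set.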

Additional observations from a re-analysis of the deposited data

How the results depend on the processing

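The members were chosen for higher values in these libraries, so that their keeping a direction is no sign of stability. Of 72 log2 fold changes under 12 alternatives, of which the replicate block cannot move any, 70 moved by less than the spread between replicates. The exceptions were Mup21 after rescaling by the median ratio (2.02) and in DESeq2 (2.01), against 1.68. That spread is each member's own, so an uneven member could move further without being an exception. Mup7 went from 4.22 to 2.33 without AAV-GFP replicate 2, and Mup15 from 6.58 to 7.94 without AAV-GFP replicate 1. The count of 70 therefore does not rank the members by stability. The summed members kept a log2 ratio between 2.00 and 3.05 with 1 library left out, and 2.66 after rescaling, against 2.40. The number of genes called by limma was less stable. It was 782, and between 0 and 607 with 1 library left out. The 0 came without AAV-Ly6d replicate 1, where 773 genes had an unadjusted p under 0.05. It was 1 at an adjusted p under 0.01 and 1700 under 0.1, 967 in edgeR and 938 in DESeq2. With the replicate block it was 48. Deviations from the group means had correlations of -0.06 to -0.02 between libraries with the same number and of -0.08 to 0.09 between the others. With 3 libraries per group this cannot show whether the numbers pair the libraries, and the labels do not say. Of the 5 genes most like the summed members, 3 were among the top by Spearman's rho. The cause of these changes was not tested. Depth limits Mup13 and Mup15 most in AAV-GFP, where 11 to 351 reads were recovered. For the 6 members, the number called was between 0 and 6 with 1 library left out and 2 with the replicate block.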
